A study of Mus musculus with 2 samples.

Results

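The EGR and AP-1 immediate early factors are 10 mouse genes, taken by symbol from the annotation: the zinc finger genes Egr1, Egr2 and Egr3, the FOS genes Fos, Fosb and Fosl2, the JUN genes Jun, Junb and Jund, and Atf3. They are 10 of 55401 gene identifiers counted by RNA sequencing of hearts from C57BL/6 mice, and all 10 reached 1 CPM, the usual count unit scaled to library size, in 1 or both libraries. Both groups underwent TAC (transverse aortic constriction), in which a suture narrows the aortic arch so that the left ventricle pumps against raised pressure. One group had TAC alone, and the other had TAC with dioscin, a steroidal saponin from yam species, over 4 weeks (the dioscin library). Each group had 1 library. The treatment protocol has the same wording for both samples and names dioscin, so only the treatment label sets the TAC library apart as undosed, and every ratio below rests on that label. Whether 1 heart or a pool of hearts went into each is not in the labels, which also give neither the age or sex of the mice nor the time between the last dose and the removal of the heart. Hearts without surgery were not analysed here, so no level below is set against an unloaded heart.

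Immediate early genes are transcribed within minutes of a stimulus, without new protein synthesis, from factors already bound at their promoters. Mitogen-activated protein kinases phosphorylate ELK factors that sit beside SRF on the serum response element, and other kinases phosphorylate CREB on cAMP response elements. The EGR proteins then bind GC-rich DNA through zinc fingers. AP-1 is a pair of leucine zipper proteins, classically a FOS with a JUN protein or a pair of JUN proteins. Other leucine zipper proteins, ATF3 among them, can also pair with JUN proteins. FOS proteins cannot pair with themselves, so the FOS to JUN balance bears on which FOS and JUN pairs can form. In the heart, Fos and Egr1 are classical early transcripts of acute pressure load and stretch, and their messenger RNAs are short-lived.

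The promoter sequences come first so that the motif letters named for these signals can be read in place; no binding was measured. RefSeq windows on GRCm38.p6 reached from 250 bases before to 50 bases after an annotated start. Those of 8 of the 10 genes were searched, and none was used for Egr1 and Egr3. The following 6 are shown, 5′ to 3′ on the gene's strand. They are the promoters of Fos, Fosb and Atf3, whose transcripts were fewer in the dioscin library, of Jun and Junb, which differed less, and of Egr2, the EGR gene that was searched. Capitals mark letters that match a searched motif on either strand.
Fos (chr12:85473640-85473939, plus strand): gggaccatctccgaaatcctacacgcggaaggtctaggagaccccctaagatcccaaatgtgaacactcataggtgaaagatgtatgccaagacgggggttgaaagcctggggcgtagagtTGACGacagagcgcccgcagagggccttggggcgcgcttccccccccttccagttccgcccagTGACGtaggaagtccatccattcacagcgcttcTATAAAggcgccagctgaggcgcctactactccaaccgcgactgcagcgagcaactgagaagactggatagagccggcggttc
Fosb (chr7:19309996-19310295, minus strand): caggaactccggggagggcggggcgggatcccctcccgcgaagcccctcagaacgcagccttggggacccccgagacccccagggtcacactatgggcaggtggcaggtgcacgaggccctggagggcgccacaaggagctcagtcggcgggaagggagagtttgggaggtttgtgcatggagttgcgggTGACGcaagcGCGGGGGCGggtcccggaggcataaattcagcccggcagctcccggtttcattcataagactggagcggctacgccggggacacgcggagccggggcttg
Atf3 (chr1:191183284-191183583, minus strand): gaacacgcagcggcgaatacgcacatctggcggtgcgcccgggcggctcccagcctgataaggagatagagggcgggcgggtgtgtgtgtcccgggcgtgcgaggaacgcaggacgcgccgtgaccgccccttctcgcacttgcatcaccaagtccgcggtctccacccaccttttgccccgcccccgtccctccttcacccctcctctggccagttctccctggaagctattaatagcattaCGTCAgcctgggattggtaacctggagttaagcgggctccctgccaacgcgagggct
Egr2 (chr10:67537620-67537919, plus strand): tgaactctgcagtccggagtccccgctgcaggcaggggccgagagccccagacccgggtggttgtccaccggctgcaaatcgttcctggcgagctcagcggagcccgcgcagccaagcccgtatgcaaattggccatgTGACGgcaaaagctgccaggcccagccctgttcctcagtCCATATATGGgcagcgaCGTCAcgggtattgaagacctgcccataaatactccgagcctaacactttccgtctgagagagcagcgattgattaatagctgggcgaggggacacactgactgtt
Jun (chr4:95052173-95052472, minus strand): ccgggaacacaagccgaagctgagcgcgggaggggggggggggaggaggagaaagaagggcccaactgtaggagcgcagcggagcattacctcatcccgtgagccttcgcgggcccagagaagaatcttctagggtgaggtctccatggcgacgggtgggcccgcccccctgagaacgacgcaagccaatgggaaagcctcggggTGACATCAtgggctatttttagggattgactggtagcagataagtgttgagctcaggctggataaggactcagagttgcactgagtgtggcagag
Junb (chr8:84978699-84978998, minus strand): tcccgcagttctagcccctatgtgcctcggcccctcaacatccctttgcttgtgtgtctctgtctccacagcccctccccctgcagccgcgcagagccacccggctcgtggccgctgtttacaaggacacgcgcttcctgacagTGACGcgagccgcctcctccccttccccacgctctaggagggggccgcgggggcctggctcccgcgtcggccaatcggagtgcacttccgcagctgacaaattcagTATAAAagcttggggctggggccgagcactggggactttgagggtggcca

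The core of the cAMP response element, TGACG, stood in the windows of 5 of the 8 genes (Egr2, Fos, Fosb, Junb and Atf3), and in 20.8% of the 32851 promoter windows of all genes. In Fos it began at positions -129 and -66 from the RefSeq start, ahead of a TATAAA element at -33. The complete element TGACGTCA was in none of the 8 and in 1.79% of all windows. Among the 8 genes, the CArG box, the SRF-binding core of the serum response element, matched in Egr2 alone. It began at -73 in the window shown, and 1.63% of all windows held one. The windows reach only 250 bases before the start and leave out Egr1. A CArG box farther upstream, or one in Egr1, would therefore not show here. Egr2 has 5 RefSeq windows, and the one shown was chosen because it holds the CArG match. For every motif a gene counts if any of its windows matches, whereas the background is a share of windows. The 2 are unlike units, and the gene count favours Egr2. An EGR site, GCGNGGGCG, matched in Fosb at -50 and in Fosl2 at -79, against 5.55% of all windows. Jun held TGACATCA at -45, a variant AP-1 site found in 3.62% of windows, and the regular AP-1 site TGANTCA was in none of the 8 and in 7.81% of all. TATAAA occurred in Fos and Junb and in 13.6% of all windows. In Junb it stood at position 1, and that RefSeq start lies 30 bases from the nearest GENCODE start. These matches are letters in a window, each searched on both strands, and TGACG is also the start of TGACGTCA. The Jund window held no match, but its RefSeq start lies 1210 bases from the nearest GENCODE start, so it may not show the promoter in use.

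**Figure D1:**
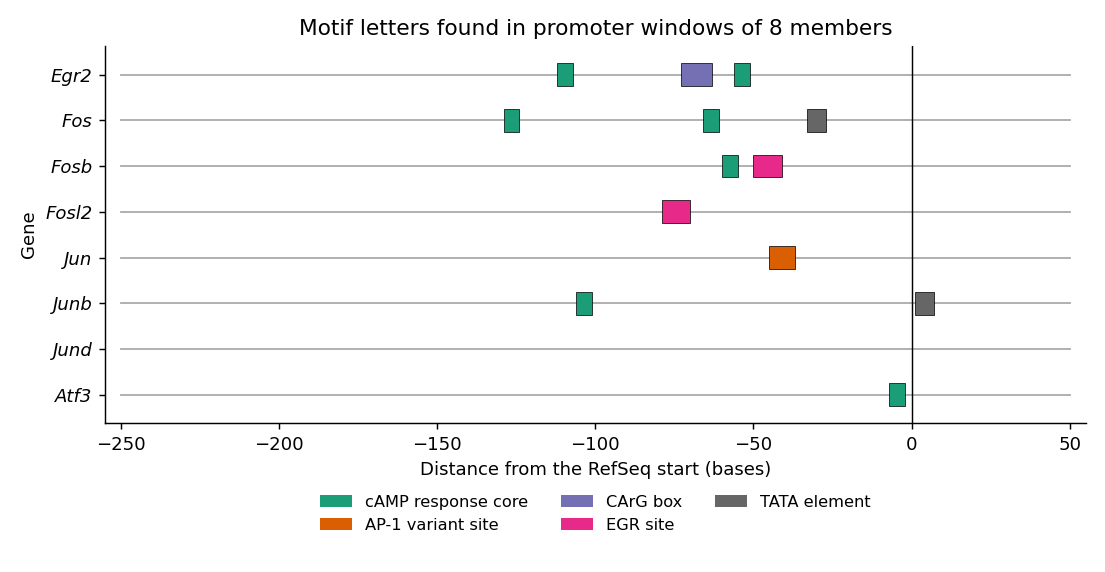
Motif matches in the promoter windows of 8 genes, by distance in bases from the RefSeq start (vertical line at 0). Each grey line is a window of 300 bases and each coloured block a match; 5 of the 8 genes carry the cAMP response core, and the Jund window carries no match.

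In the TAC library 16782741 reads were counted in genes, and in the dioscin library 17612259. A gene is called higher or lower here when it reached 1 CPM in 1 or both libraries, it differed at least 2-fold up or down, and the exact 95% counting interval of its ratio excluded 1. This size rule is no test of dioscin: with 1 library per group there is no replicate check, and the intervals given in parentheses cover counting error only. There were 15697 genes at or above 1 CPM, of which this rule calls 10.5% higher and 8.77% lower in the dioscin library. With library totals that leave out mitochondrially encoded genes (31.6% of gene counts with TAC alone and 25.5% with dioscin), those shares were 7.71% and 13.8% of 16540 genes, since that scaling moves the median log2 ratio of all genes by -0.22. With total gene counts they were 9.2% and 10.4% of 15777 genes, so the balance of all genes also turned to lower.

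Of the 10 genes, 2 were lower by the size rule, Egr1 and Egr3, none was higher, and 8 did not pass. Ratios went in opposite directions among them. Those of Egr1, Egr3, Fos, Fosb and Atf3 lay below 1 with intervals that excluded 1, those of Jun and Jund lay above 1 with intervals that excluded 1, and the intervals of Egr2, Fosl2 and Junb included 1. These intervals belong to the main scaling of library sizes (TMM). Another scaling shifts them, so which of them exclude 1 can differ. Their median log2 ratio of dioscin over TAC was -0.62, beside 0.01 over all genes at or above 1 CPM. With a fold of 1.5 in place of 2, 5 of the 10 were lower and 1 was higher, against 17.9% and 20.3% of all genes. In a bulk heart library, fewer cells of a type and less RNA per cell cannot be told apart.

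**Figure D2:**
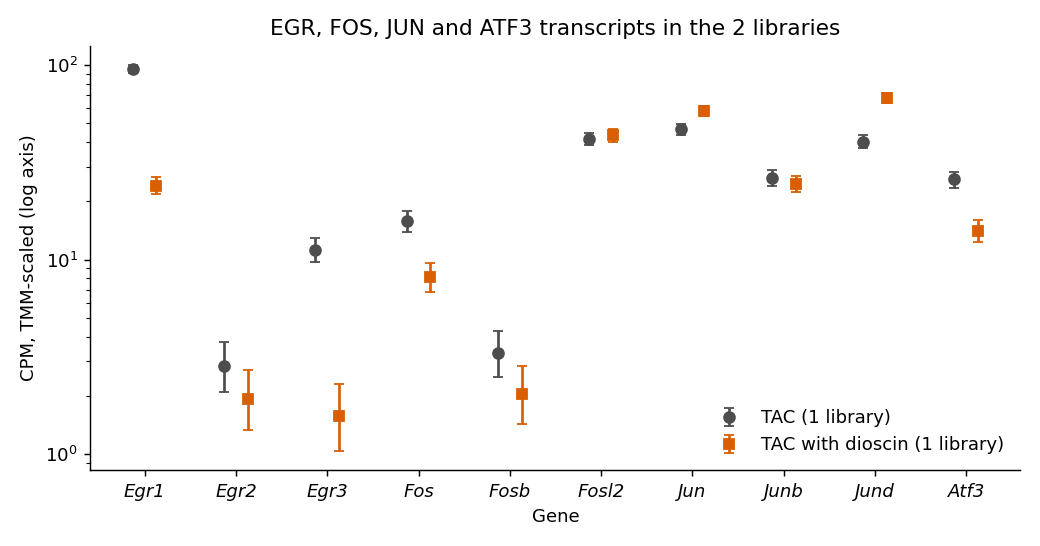
CPM (TMM-scaled, log axis) of each gene in the TAC library (circles) and the dioscin library (squares), 1 library each; bars are exact 95% Poisson intervals of the count. Egr1 (94.8 against 24.0 CPM) and Egr3 (11.2 against 1.58 CPM) stand widest apart, whereas the bars of Egr2, Fosb, Fosl2 and Junb overlap.

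The EGR genes held the widest gaps. Egr1 (ENSMUSG00000038418.7, chromosome 18, 34859823 to 34864984 on GRCm38) encodes the founding EGR activator, which is induced by growth factors, stretch and hypoxia. It had 1637 counts (94.8 CPM) with TAC alone and 410 counts (24.0 CPM) with dioscin. This is the highest CPM of the 10 genes in the TAC library, and the counting intervals of both libraries are far apart. Only 1.90% of all genes at or above 1 CPM had a lower ratio. Egr3 (ENSMUSG00000033730.4, chromosome 14, 70077203 to 70082614) encodes a related factor needed for muscle spindle development and for restraint of T cells. It went from 193 counts (11.2 CPM) to 27 (1.58 CPM), and 0.714% of genes had a lower ratio.

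Egr2 (ENSMUSG00000037868.15, chromosome 10, 67535475 to 67542188), best known as the master factor of myelination in Schwann cells, was low in both libraries. It had 49 counts (2.84 CPM) with TAC alone and 33 counts (1.93 CPM) with dioscin. The ratio of TAC over dioscin was 1.46 (0.928 to 2.36), so a difference was not detectable at this depth and scaling. Its log2 ratio of dioscin over TAC was -0.55, and -0.76 without mitochondrial genes. The ratio of Egr3 to Egr2 counts within a library, which no scaling can move, was 3.94 with TAC alone and 0.818 with dioscin, 4.78 times as high in the former (2.53 to 9.14). The ratio of Egr1 to Egr3 was 8.48 and 15.2, 0.559 times as high with TAC alone (0.354 to 0.853), so the gap between the libraries was wider for Egr3 than for Egr1. Summed over the 3 genes, EGR counts were 1879 and 470, a TAC over dioscin ratio of 3.96 (3.58 to 4.39).

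Among the FOS genes, the 2 that are induced most acutely had fewer counts in the dioscin library, and the third had as many. Fos (ENSMUSG00000021250.13, chromosome 12, 85473890 to 85477273) encodes a protein that needs a JUN partner to form classical AP-1. It had 271 counts (15.7 CPM) with TAC alone and 139 (8.12 CPM) with dioscin. The intervals of these levels do not overlap. Its TAC over dioscin ratio of 1.93 (1.57 to 2.39) was just short of the size rule. Scaled by total gene counts the log2 ratio was -1.03 in place of -0.95, and without mitochondrial genes -1.15, and Fos then passed as lower, which made 3 of the 10 lower with total gene counts (beside 10.4% of all genes lower and 9.2% higher).

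Fosb (ENSMUSG00000003545.3, chromosome 7, 19302696 to 19310051) gives rise by splicing to a full-length protein and to a truncated, long-lived form, which gene counts cannot separate. It had 57 counts (3.30 CPM) and 35 (2.04 CPM), a TAC over dioscin ratio of 1.61 (1.04 to 2.53). The CPM intervals of both libraries overlap. Fosl2 (ENSMUSG00000029135.10, chromosome 5, 32135801 to 32157842), which encodes FRA2, a FOS protein without a strong activation domain that has been linked to fibrosis, had 718 counts (41.6 CPM) and 743 (43.4 CPM). Its dioscin over TAC ratio was 1.04 (0.941 to 1.16), a log2 ratio of 0.06 that turned to -0.02 with total gene counts and to -0.14 without mitochondrial genes.

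With TMM scaling, the JUN genes were level or above. Jun (ENSMUSG00000052684.4, chromosome 4, 95049034 to 95052222), an intronless gene whose protein can pair with itself or with FOS, had 804 counts (46.6 CPM) with TAC alone and 993 (58.0 CPM) with dioscin. The 2 levels have intervals that do not overlap, at a dioscin over TAC ratio of 1.25 (1.13 to 1.37). Junb (ENSMUSG00000052837.7 in the files, at chromosome 8, 84974484 to 84978718 in GENCODE M21, which holds another version of the gene), a weaker activator that often opposes JUN, had 453 counts (26.2 CPM) and 418 (24.4 CPM). Its ratio was 0.931 (0.813 to 1.07), below 1 under every scaling tried. Jund (ENSMUSG00000071076.6, chromosome 8, 70698949 to 70700616) encodes a largely constitutive JUN protein that restrains hypertrophic growth in mouse hearts. It had 697 counts (40.4 CPM) and 1151 (67.2 CPM), a ratio of 1.67 (1.52 to 1.83), and 16.6% of all genes had a higher ratio. The log2 ratios of Jun and Jund, 0.32 and 0.74, stayed above 0 but shrank to 0.11 and 0.53 without mitochondrial genes. That of Junb went from -0.10 to -0.31. The 0.11 of Jun lies below the lower end of its TMM interval, a log2 ratio of 0.18.

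An annotated gene on the opposite strand overlaps the exons of each JUN gene. For Jund it is Gm11175, an antisense RNA gene that covers 52.6% of the exonic bases and had 430 and 866 counts, a ratio of 2.03 (1.81 to 2.29) that passed the size rule. The kit named in the labels is one that does not mark strand, and how the counting treated strand and overlapping genes is not given, so the values of Jund and Gm11175 are uncertain. For Jun, Junos covers 7.3% of the exonic bases, with 47 and 60 counts. For Junb, the peroxiredoxin gene Prdx2 covers 7.5%, with 2119 and 3205 counts and a ratio of 1.53 (1.44 to 1.61), opposite in direction to Junb itself.

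Atf3 (ENSMUSG00000026628.13, chromosome 1, 191170296 to 191218039), a stress-induced leucine zipper factor that acts as a repressor on its own and pairs with JUN proteins, had 445 counts (25.8 CPM) with TAC alone and 240 (14.0 CPM) with dioscin. The intervals of both levels are separate, and the TAC over dioscin ratio was 1.84 (1.57 to 2.16), short of the size rule. It passed as lower without mitochondrial genes, at a log2 ratio of -1.08, while with total gene counts it stayed at -0.96.

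**Figure D3:**
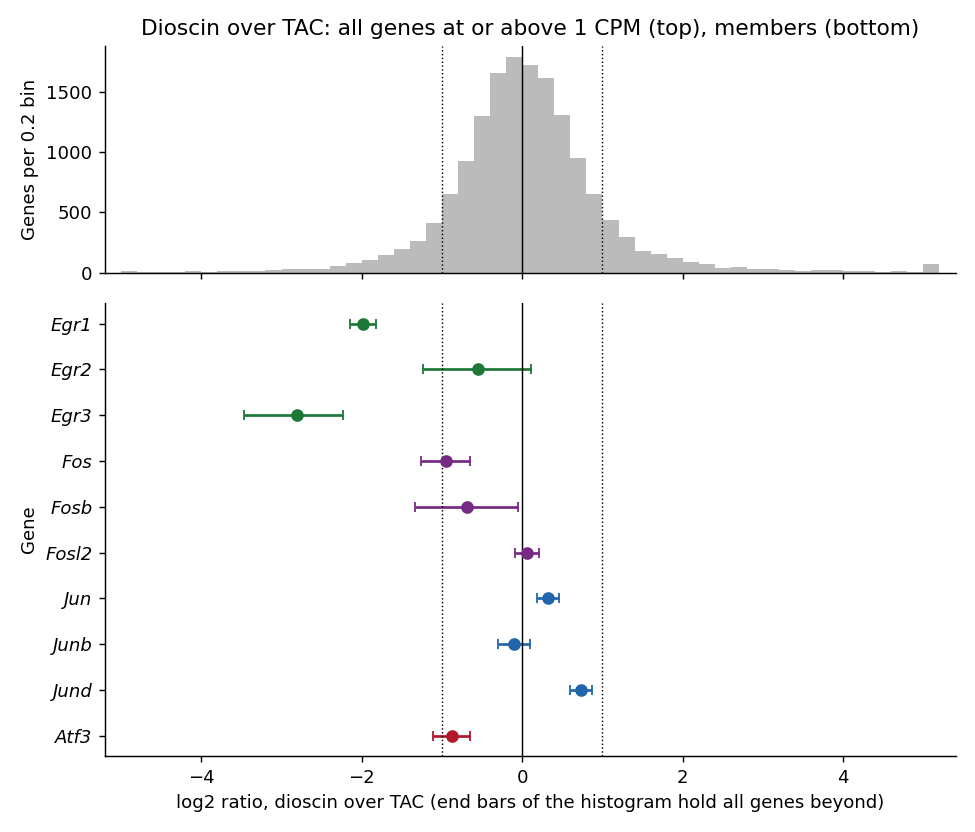
Log2 ratio of dioscin over TAC for the 15697 genes at or above 1 CPM (top, genes per bin of 0.2) and for each of the 10 genes (bottom, bars are exact 95% counting intervals). Dotted lines mark a fold of 2; Egr1 and Egr3 lie left of the dotted line at -1, and Jund at 0.74 is the rightmost gene.

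Because libraries can be scaled in several ways, ratios between genes of the same library were also taken. Fos had 0.337 counts per count of Jun with TAC alone and 0.140 with dioscin, 2.41 times as high in the former (1.91 to 3.04). The ratio of Egr1 to Jun was 2.04 and 0.413, 4.93 times as high (4.26 to 5.70). The ratio of Atf3 to Jun was 0.553 and 0.242, 2.29 times as high (1.90 to 2.76). By contrast the ratio of Fosl2 to Jun was 0.893 and 0.748, 1.19 times as high (1.04 to 1.37). Within the FOS genes, Fos per Fosl2 was 0.377 and 0.187, 2.02 times as high in the TAC library (1.60 to 2.56). Within the JUN genes, Jund per Jun was 0.867 and 1.16, 0.748 times as high (0.654 to 0.856). Fos and Fosb did not separate from each other at this depth, with a ratio of 4.75 and 3.97, 1.20 times as high (0.725 to 1.96).

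Levels were compared between genes as TPM, which divides counts by exon length and scales every library to the same sum. In the TAC library the order was Jund (41.7), Egr1 (36.5), Jun (25.2), Atf3 (20.6), Junb (19.7), Fos (11.5), Fosl2 (7.41), Egr3 (4.38), Egr2 (1.44) and Fosb (0.912 TPM). Of neighbours in this order, Atf3 and Junb had overlapping counting intervals, and so had Egr2 and Fosb. In the dioscin library the order was Jund (71.2), Jun (32.1), Junb (18.7), Atf3 (11.5), Egr1 (9.43), Fosl2 (7.91), Fos (6.09), Egr2 (1.00), Egr3 (0.632) and Fosb (0.578 TPM). Here Atf3 overlapped Egr1, Egr2 overlapped Egr3, and Egr3 overlapped Fosb. Egr1 thus stood in place 2 of the 10 in the TAC library and in place 5 in the dioscin library. If the exonic bases that Jund shares with Gm11175 gave no counts to Jund, its level per remaining base would be 88.0 and 150.0 TPM. This divides the same counts by fewer bases, so it can only raise the level and is no check of the order. Whether reads from Gm11175 were counted for Jund was not tested.

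The make-up of the families differed accordingly. Per exon length, Fos made up 58.0% of the FOS family with TAC alone and 41.8% with dioscin, and Fosl2 37.4% and 54.3%. In counts, the share of Fos was 25.9% (exact 95% interval 23.3 to 28.7) and 15.2% (12.9 to 17.6), a lower share because the exons of Fosl2 are 9680 bases long against 2352 for Fos. In the JUN family Jund had 48.2% and 58.3% of TPM and Junb 22.7% and 15.4%. Egr1 held the EGR family in both libraries, at 86.2% and 85.2% of TPM. Egr3 ranked above Egr2 behind it with TAC alone, while their intervals overlapped with dioscin. Egr3 had 10.3% of EGR counts (8.93 to 11.7) and then 5.74% (3.82 to 8.25), while Egr2 had 2.61% (1.94 to 3.43) and then 7.02% (4.88 to 9.72).

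**Figure D4:**
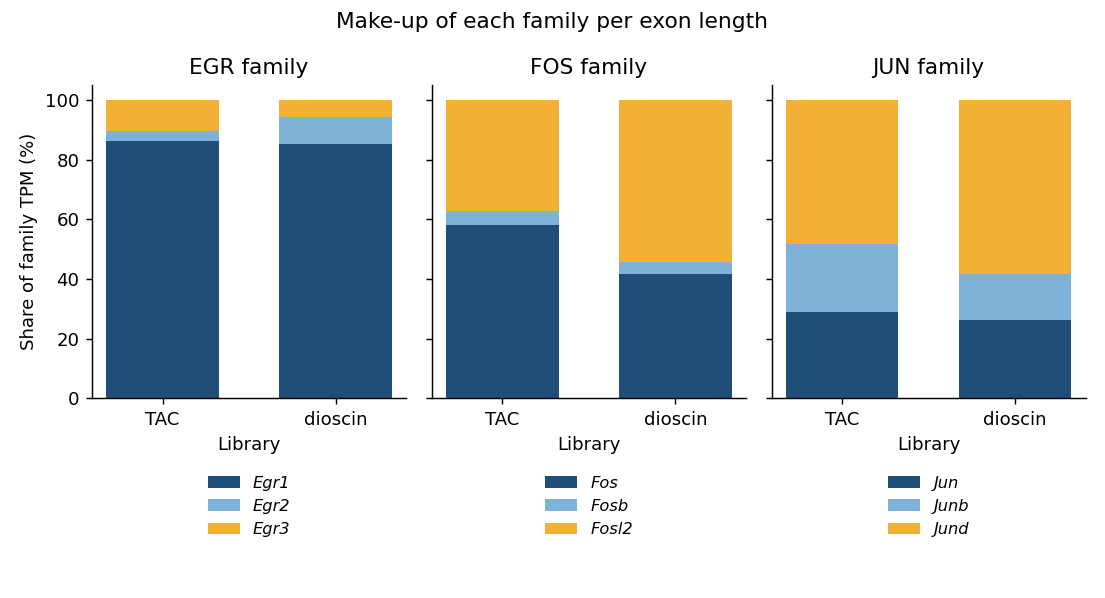
Share of each gene in the summed TPM of its family (percent) in the TAC and dioscin libraries, 1 library each. Fos takes 58.0% of the FOS family with TAC alone and 41.8% with dioscin, Jund takes 48.2% and 58.3% of the JUN family, and Egr1 dominates the EGR family in both.

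One feature that the choice of genes did not use is the AUUUA pentamer, a hallmark of messenger RNAs that decay fast. In the longest annotated 3′ untranslated region of each gene, 9 of the 10 had more pentamers per kilobase than the median of 1.35 over 12771 protein-coding genes at or above 1 CPM, and the median of the 10 was 2.52. Fos had 4 in 815 bases, a density of 4.91 above that of 93.9% of genes. Junb had 2 in 485 bases (4.12 per kilobase) and Jun 4 in 1233 (3.24). Egr3 had 7 in 2645 bases (2.65) and Egr1 2 in 1216 (1.65), while Fosb, with 1 in 2302 bases (0.434), was the exception. Whether the density goes with the ratios was not tested, and the longest annotated region need not be the one expressed.

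Of 22 other immediate early genes, 21 reached 1 CPM, and 6 were higher and 4 lower by the size rule, with a median log2 ratio of 0.47. The background beside these counts is the 10.5% higher and 8.77% lower of all genes. Ier5l, a small early response gene, had 208 and 45 counts, 4.54-fold lower (3.31 to 6.47). The orphan nuclear receptor Nr4a1 went from 1579 to 479 counts, 3.27-fold lower (2.95 to 3.63), in the direction of Egr1. Its paralog Nr4a3 went from 31 to 160 counts, 5.14-fold higher (3.53 to 7.92). The kinase gene Sgk1, which glucocorticoids and osmotic stress also induce, went from 1548 to 3983 counts, 2.60-fold higher (2.45 to 2.75). Also lower were Nr4a2 and Ier2, and also higher were Klf4, Ier3, Gem and Myc. The most abundant gene that did not pass was Rhob, a small GTPase, at 139 and 277 CPM and a ratio of 1.99 (1.89 to 2.09). Egr4, the remaining EGR gene, had 0 counts in both libraries, which allows up to 0.174 CPM and 0.175 CPM.

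Of 22 upstream kinases and promoter factors, 2 were higher, a share near that of all genes (10.5%), and 0 lower (8.77% of all genes), at a median log2 ratio of -0.02. These were Mapk10, the JNK3 kinase otherwise typical of neurons, from 44 to 345 counts and 7.83-fold higher (5.77 to 11.1), and Rps6ka5, the MSK1 kinase that phosphorylates CREB, from 115 to 237 counts and 2.07-fold higher (1.66 to 2.62). The ternary complex factor Elk4, the most abundant that did not pass, had 100.3 and 79.9 CPM, a ratio of 0.797 (0.742 to 0.856). Of 16 feedback inhibitors (NAB corepressors of EGR, dual specificity phosphatases, TTP-family decay factors and Sprouty proteins), 1 was higher and 0 lower, at a median of -0.13. The shares over all genes were 10.5% higher and 8.77% lower. The 1 higher was the phosphatase gene Dusp4, with 7 and 46 counts, 6.25-fold higher (2.97 to 17.4). Dusp1, itself an immediate early gene that switches off p38 and JNK, was the most abundant one, at 105 and 106 CPM with a ratio of 1.01 (0.944 to 1.08).

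Among 12 leucine zipper factors that can pair with or replace AP-1 subunits, 2 were higher and 0 lower, at a median log2 ratio of 0.53. That is 16.7% higher, beside 10.5% higher and 8.77% lower over all genes. Maff, a small MAF protein, went from 165 to 362 counts, 2.21-fold higher (1.84 to 2.68). Jdp2, the JUN dimerization protein that represses AP-1 sites, went from 151 to 321 counts, 2.14-fold higher (1.76 to 2.62). Neither was higher without mitochondrial genes in the library totals. Atf4, the translation-controlled stress factor, was the most abundant of the 12 and did not pass, at 112 and 122 CPM with a ratio of 1.08 (1.02 to 1.15).

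Genes often described as AP-1 or EGR targets went both ways. Of 20, 18 reached 1 CPM, 5 were higher (27.8%) and 3 lower (16.7%), with a median log2 ratio of 0.28. Over all genes these shares were 10.5% and 8.77%. The matrix signalling gene Ccn2 went from 1014 to 12232 counts. Mmp3, stromelysin, went from 80 to 296 counts, 3.72-fold higher (2.91 to 4.84), and Timp1, an inhibitor of metalloproteinases, from 41 to 157, 3.83-fold higher (2.72 to 5.59). The collagenase gene Mmp13 had 39 counts with TAC alone and 0 with dioscin, at least 12.9-fold lower against a floor of 3 counts in that library, while the counting interval of its ratio begins at 9.99. Also lower were Ccnd1, the cyclin of cell cycle entry, from 2386 to 880 counts, and the cytokine gene Lif, from 19 to 2 counts with a TAC over dioscin ratio of 7.73 (2.27 to 83.4). Hmox1, the heme-degrading enzyme gene, was also higher, and the platelet-derived growth factor gene Pdgfb was the most abundant that did not pass, at 93.6 and 57.3 CPM with a ratio of 0.612 (0.565 to 0.663).

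Of 12 genes of the integrated stress response and its ATF3 branch, 11 reached 1 CPM, with a median log2 ratio of -0.16. Of these, 1 was higher (9.09%) and 2 were lower (18.2%), beside 10.5% and 8.77% of all genes. Ddit3, which encodes CHOP, a partner of ATF3 and ATF4, went from 923 to 401 counts, 2.28-fold lower (2.03 to 2.57). Gdf15, a secreted stress cytokine, went from 43 to 11 counts, 3.75-fold lower (1.96 to 8.33). Gadd45b, a growth arrest gene, went from 91 to 193 counts, 2.13-fold higher (1.66 to 2.78). Atf4 also belongs to this list and did not pass.

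**Figure D5:**
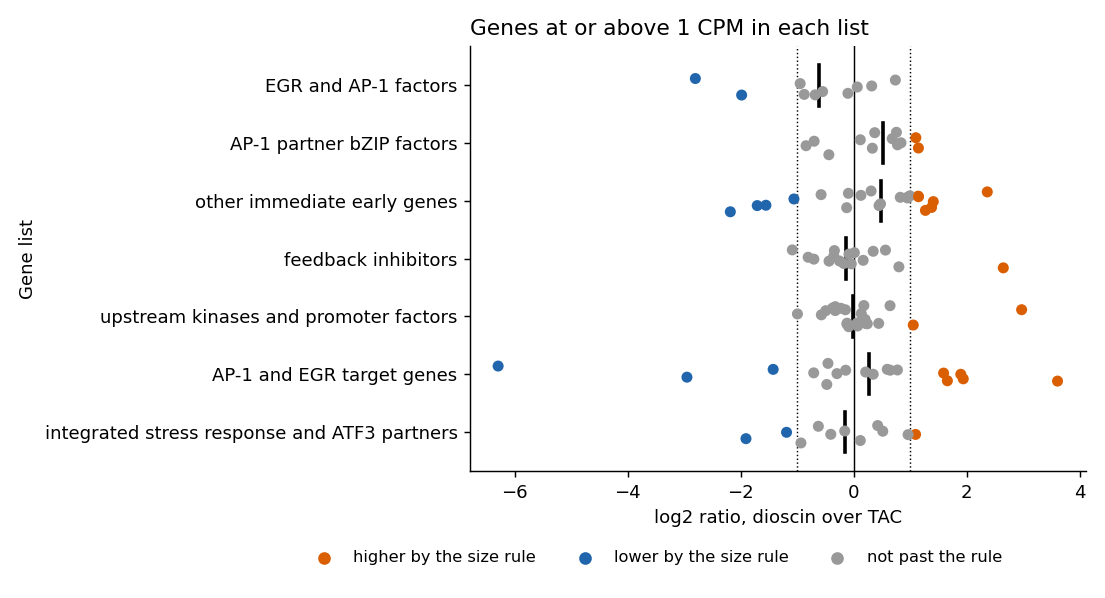
Log2 ratio of dioscin over TAC for genes at or above 1 CPM in the EGR and AP-1 set and in 6 related lists; each point is a gene, coloured by the size rule, black bars are list medians and dotted lines a fold of 2. The EGR and AP-1 median is -0.62 and that of the other immediate early genes 0.47; the leftmost point is Mmp13, at 0 counts in the dioscin library, whose place depends on the pseudocount.

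Both libraries carried the defining transcripts of heart muscle: all 8 cardiomyocyte markers were counted, with 45233 and 50739 CPM in sum, and 1 of them was higher. Markers of other cells differed widely between the same 2 libraries. The shares to set beside all marker counts are the 10.5% higher and 8.77% lower of all genes at or above 1 CPM. Only markers that reached 1 CPM could be called. They numbered 4 atrial, 4 adipocyte, 5 B cell, 5 T and NK cell and 3 neutrophil markers. In the other marker lists every gene reached 1 CPM. Of 5 atrial markers 4 were higher, with a summed 4.00 CPM with TAC alone, where Mybphl and Bmp10 were at 0, and 4656 CPM with dioscin. Of 8 mesothelial markers 7 were higher (18.5 and 153 CPM in sum, with Krt8 and Krt18 at 0 in the TAC library), of 6 adipocyte markers 4 (0.347 and 22.4 CPM, with Plin1, Cidec, Lep and Retn at 0 in the TAC library and Lep at 0 in the dioscin library), and of 7 fibroblast markers 3 (690 and 1582 CPM, none at 0). Lower, as Egr1 and Egr3 were, were 5 of 6 B cell genes (17.1 and 3.86 CPM in sum), 3 of 7 T and NK cell genes (15.8 and 7.42 CPM) and 3 of 6 neutrophil genes (19.6 and 5.67 CPM, with Ly6g at 0 in both). Macrophage markers did not share that direction, with 1 of 7 higher and 0 lower (203 and 316 CPM), and of 6 endothelial markers 2 were higher and 1 lower (1492 and 1463 CPM). Of 6 smooth muscle and pericyte markers 1 was higher (1237 and 1339 CPM), and of 5 erythroid markers 1 was lower (373 and 306 CPM). Their part in the EGR and AP-1 values was not tested.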

How the data were processed

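Hearts were frozen and extracted with Trizol, and libraries were made with the Illumina TruSeq RNA kit, per the labels' protocols. The authors deposited raw read counts for each gene. HISAT2 2.1.0, HTSeq and the build mm10 are named in the submitters' processing notes. Not given in the sources used here are the version, annotation release and strand setting of the counting. Library sizes leave out the 5 summary lines for reads assigned to no gene. In the TAC and dioscin library respectively they were 30.04% and 30.03% of all lines for reads in no gene, 38.2% and 36.5% for multiple alignments, 1.49% and 1.39% for ambiguous reads, 1.48% in both for low alignment quality, and 2.59% and 2.17% for unaligned reads.

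Of 55401 identifiers, 55141 matched GENCODE M21 (GRCm38, the build that mm10 names) without the version number. CPM were computed on library sizes scaled by TMM (edgeR 4.0.16, R 4.3.3), and ratios had a pseudocount of 0.5. Ratio and share intervals are exact 95% Clopper-Pearson intervals (scipy 1.17.1). Ratios between genes within a library have exact conditional intervals. TPM used the summed length of merged exons. PCR copies were not told apart, so intervals and floors of 3 counts cover counting error only.

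The 10 genes and all lists were chosen with earlier results of these data known. All 10 genes are named. Each list gives up to 4 genes past the rule whose interval bound lies farthest from 1, and the most abundant that did not pass. Some other genes past the rule are named as well, and 1 gene that the rule takes is not reported here. No likeness between genes was ranked, since 2 libraries give 1 ratio per gene. Alternatives were median-of-ratios factors of DESeq2 1.42.0, library totals with and without mitochondrial genes, a pseudocount of 1, no filter or 5 CPM, folds of 1.5 and 3, protein-coding genes alone, and shares of raw counts. The level of Jund outside its overlap was added after seeing the data.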

Additional observations from a re-analysis of the deposited data

How the results depend on the processing

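With 1 library per group no replicate could be left out. No paired analysis was possible because each group has 1 library. The call of Egr1 and Egr3 as lower held under every alternative, and no member's called direction turned. With library totals without mitochondrial genes, 4 of the 10 genes were lower (Egr1, Egr3, Fos and Atf3), and 2286 of all genes (13.8%). That setting gave 0 higher and 1 lower partner leucine zipper factors, 2 lower feedback inhibitors, 1 higher and 1 lower upstream gene, and 0 higher stress response genes. With total gene counts, 3 of the 10 were lower, beside 10.4% of 15777 genes (1634 lower and 1452 higher), and there was 1 lower feedback inhibitor, with 1 upstream gene higher and 1 lower. With median-of-ratios factors 1 upstream gene was lower. A filter of 5 CPM removed Egr2 and Fosb and left 1045 genes higher and 695 lower, 0 feedback inhibitors higher, 1 target gene lower and 1 stress response gene lower. A fold of 1.5 gave 3187 genes higher and 2815 lower, and among the 10 genes 1 higher (Jund) and 5 lower (Egr1, Egr3, Fos, Fosb and Atf3). It gave 6 higher partner factors, 10 higher other immediate early genes, 2 higher and 2 lower feedback inhibitors, 1 lower upstream gene, 8 higher target genes, and 2 higher and 4 lower stress response genes. A fold of 3 gave 781 genes higher and 554 lower, 0 higher partner factors, 1 higher and 2 lower other immediate early genes, 1 higher upstream gene, and 0 higher and 1 lower stress response genes. Fewer calls at a higher fold or filter follow from the rule itself; for the scalings, the whole distribution of ratios moves. Low counts, such as 33 for Egr2 and 27 for Egr3 in the dioscin library, leave wide intervals.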
